A study of Rattus norvegicus with 7 samples.

Results

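The mRNAs described here encode the catalytic, scaffold and regulatory subunits of the PPP family of serine/threonine protein phosphatases. They were taken as all genes whose symbol in the array annotation starts with Ppp1 to Ppp6 followed by c (catalytic) or r (regulatory). The array carries 56 such genes on 57 probes. Of these, 39 genes (40 probes) had a detection p-value under 0.02 on at least 2 of the 7 arrays, among 9187 probes of 22523 in all that met this limit. A gene with more than 1 probe is given by its brightest.

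These enzymes remove phosphate from serine and threonine residues. A few catalytic subunits serve many substrates, because each is held by a changing set of regulatory subunits that decide where it sits and what it acts on. PP1 pairs its catalytic subunit with a targeting or inhibitor protein, PP2A joins a catalytic and a scaffold subunit to a B-type subunit, and calcineurin (PP3) is switched on by calcium and calmodulin. PP4 and PP6 are relatives of PP2A, and PP5 carries its regulatory repeats in the same chain as the catalytic domain. In neurons PP1, PP2A and calcineurin set the phosphorylation of receptors, channels and the cytoskeleton at the synapse and in the axon.

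Cortical neurons from Sprague-Dawley rat embryos of embryonic day 18 were kept for 9 days in culture. Their extracts went through RNP immunoprecipitation (RIP) with a polyclonal antibody to TRF2-S, the short form of the telomere protein TRF2 that lacks its DNA-binding domain, or with rabbit IgG as the control. Illumina rat Ref-12 bead arrays measured the RNA from 2 TRF2-S RIP and 5 IgG RIP samples, and no array of input RNA was analysed here. The neurons had no genetic change or drug treatment in the labels. The labels call the IgG samples IgG1, IgG2, IgG3, IgG3_0 and IgG3_1x. Neither they nor the methods say whether the last 3 came from separate cultures or extracts, so p-values measure the spread between these arrays, which may be partly technical.

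Between 7097 and 8326 probes were detected per array, and between 32 and 37 of the 39 phosphatase genes. The 3 arrays with names in IgG3 differed from the other 4. Their mean signal per probe was 298 to 608 against 155 to 216, and they correlated with the others at a Pearson r of 0.875 to 0.933 across the 9187 probes, against 0.977 to 0.989 for IgG1 and IgG2 with the TRF2-S arrays. The arrays IgG3 and IgG3_1x correlated at 0.999. The TRF2-S RIP is therefore set against IgG1 and IgG2 first and then against all 5 IgG arrays. Both comparisons share the TRF2-S arrays and IgG1 and IgG2, so they are not independent. Signals were brought to a common log2 scale by the Z-score of each array, and a fold change is on that scale. No background was subtracted, so the change of a dim probe is understated.

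Neuron markers were present, with 10 of 10 tested (*Map2*, *Tubb3*, *Snap25* and others). Of the glial and vascular markers on the array, 6 of 7 for astrocytes, 5 of 8 for the oligodendrocyte lineage, 1 of 5 for microglia and 1 of 2 for endothelium were tested. The summed signal of the astrocyte list, without scaling, was 1643 to 2812 on the TRF2-S arrays, 2255 to 2710 on IgG1 and IgG2 and 3997 to 10607 on the arrays named IgG3. The neuron list rose on the arrays named IgG3 as well, with sums of 9943 to 18316, 12362 to 15974 and 30618 to 68499 in the same order. Against IgG1 and IgG2, 0 of 6 astrocyte genes lay above 0, with a median log2 fold change of -0.24, 0 past the adjusted threshold in limma and 2 lower at an unadjusted p under 0.05 (33.3%, against 6.02% of all probes). In the oligodendrocyte list 2 of 5 were lower at that p (40%), *Olig1* (-0.47) and *Cnp* (-0.37). Another 2 of the 5 lay above 0, and the median was -0.019. In the neuron list 3 of 10 were higher (30%, against 6.51% of all probes), *Tubb3* (0.48), *Snap25* (0.29) and *Map2* (0.27). However, 6 of the 10 neuron genes lay below 0, among them *Syt1* (-0.26), and the median was -0.026. In either list 0 passed adjustment. Against all 5 IgG arrays *Tubb3* (-0.39) and *Snap25* (-0.29) were below 0 and *Map2* (0.42) above. The part of glial RNA in the phosphatase values was not tested. Fewer cells of a type, less RNA per cell and less recovery of its RNA in a RIP cannot be told apart here.

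Against IgG1 and IgG2, the phosphatase subunit mRNAs divided almost evenly around 0. Of the 39 genes, 19 had a log2 fold change above 0 (48.7%), and the median was -0.0033, beside 51.4% and 0.0048 over all 9187 probes. The range ran from -0.51 for *Ppp1r16a* to 0.62 for *Ppp2r5b*, and 33 of the 39 lay within 0.3 of 0. In limma with Benjamini-Hochberg adjustment over all probes, 0 members passed 0.05 in either direction, where 0.142% of all probes were called higher and 0.0109% lower. The smallest adjusted p among the members was 0.119. At an unadjusted p under 0.05, 3 members were higher (7.69%), where 6.51% of all probes were, and 3 lower (7.69%), where 6.02% were. Both TRF2-S arrays lay above both IgG arrays for 8 members (20.5%), against 22.5% of all probes, and below for 9 (23.1%), against 19.4%, or for 8 of 37 (21.6%) without *Ppp2r1a* and *Ppp1r3b*, which none of these 4 arrays detected. These shares were near those over all probes. The one-way ANOVA named in the methods gave 6 members at an unadjusted p under 0.05 (15.4%, against 7.54% of all probes) and 0 after adjustment.

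**Figure D1:**
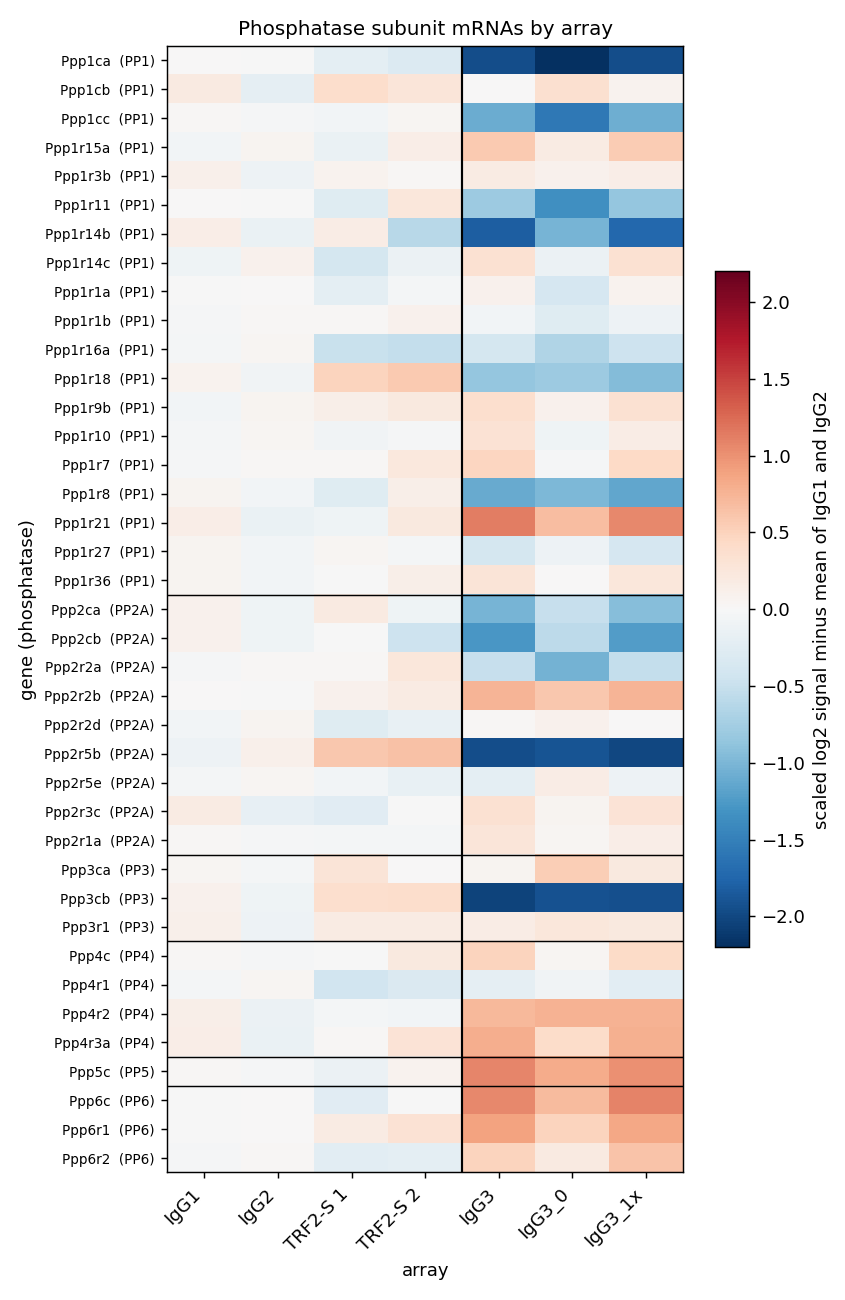
Heat map of the 39 phosphatase genes (rows, grouped by phosphatase) on the 7 arrays (columns), as scaled log2 signal minus the mean of IgG1 and IgG2, with red above and blue below that mean. The TRF2-S columns are pale, with values of at most 0.64 above and 0.61 below 0, while the 3 columns named IgG3 hold values near -2 for *Ppp1ca*, *Ppp2r5b* and *Ppp3cb* and near 1 for *Ppp5c* and *Ppp6c*.

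The member with the highest value was *Ppp2r5b*, a B′ (B56) subunit that lends PP2A its choice of substrate. Its signal was 199 and 272.5 on IgG1 and IgG2, compared with 280 and 413 in the TRF2-S RIP and 116, 105 and 101 on the arrays named IgG3. It was detected on IgG1, IgG2 and both TRF2-S arrays and on none of the arrays named IgG3, and both TRF2-S values lay above every IgG value. On the common scale the 2 TRF2-S arrays stood 0.60 and 0.64 above the mean of IgG1 and IgG2. The fold was 1.54 (log2 0.62, SE 0.12, limma adjusted p = 0.119, 95% interval 0.34 to 0.90).

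Next came *Ppp1r18* (phostensin), which brings PP1 to actin filaments, and which is part of the RT-qPCR panel of the study. Its signal was 122 and 124.5 on IgG1 and IgG2, compared with 152 and 197 in the TRF2-S RIP and 120, 107 and 99.0 on the arrays named IgG3. These are dim signals, near the lowest detected signal of 81.5 to 130.1 per array, and *Ppp1r18* was detected on the same 4 arrays as *Ppp2r5b*. The fold against IgG1 and IgG2 was 1.45 (log2 0.54, SE 0.12, limma adjusted p = 0.163), and the TRF2-S arrays again lay above every IgG array.

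Opposite in direction was *Ppp1r16a* (MYPT3), a membrane-bound member of the myosin phosphatase targeting family. It had scaled log2 signals of 9.30 and 9.38 on IgG1 and IgG2, 8.84 and 8.82 in the TRF2-S RIP and 8.95, 8.68 and 8.87 on the arrays named IgG3. The TRF2-S values lay below IgG1 and IgG2 and within the range of the arrays named IgG3. On the common scale it was 1.42-fold lower than on IgG1 and IgG2 (log2 -0.51, SE 0.10, limma adjusted p = 0.151). Before scaling its signals overlapped, with 357 and 479 on IgG1 and IgG2 and 261 and 362 on the TRF2-S arrays.

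The normalization was among the settings that changed the calls of these 3 genes. With quantile normalization in place of the Z-score, the limma adjusted p against IgG1 and IgG2 was 0.015 for *Ppp2r5b*, 0.023 for *Ppp1r18* and 0.04995 for *Ppp1r16a*, in a setting that called 221 probes higher and 136 lower of all tested. Over all alternatives their adjusted p ran from 0.0051, 0.014 and 0.015, in that order, to 1. Background correction with neqc gave *Ppp1r18* a log2 fold change of 0.94 with no phosphatase gene called.

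**Figure D2:**
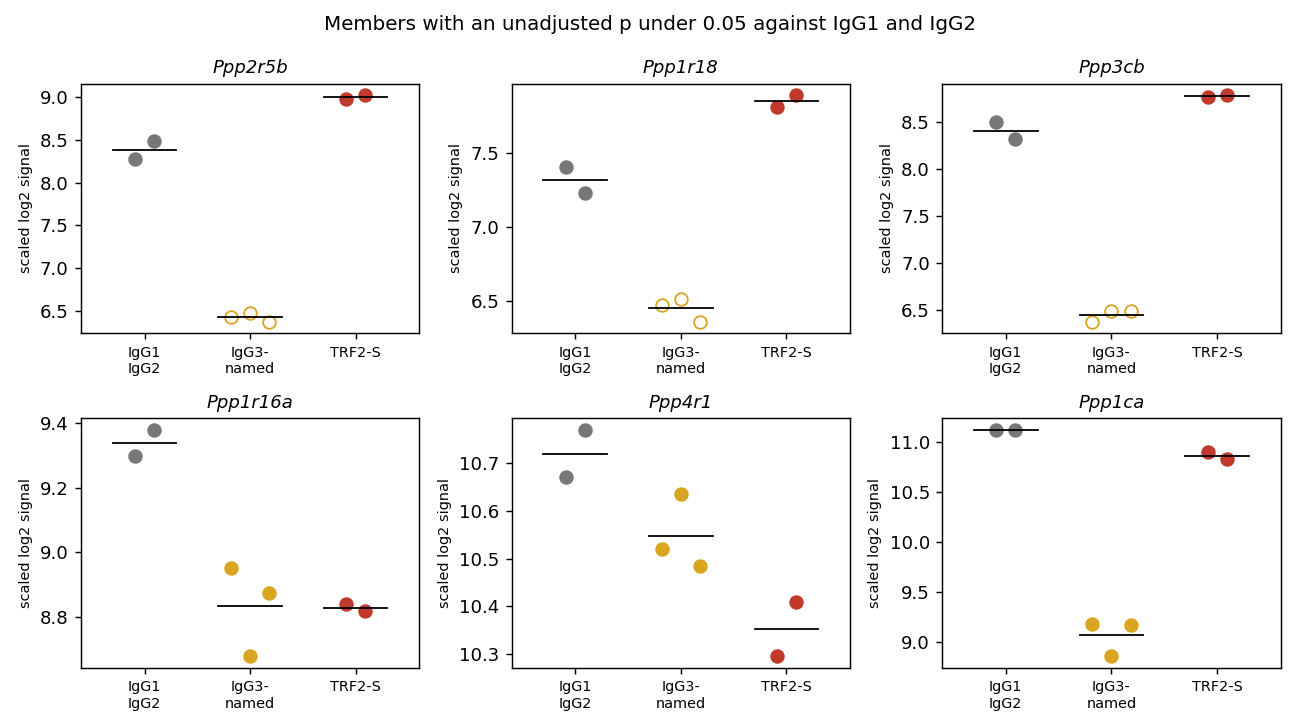
Scaled log2 signal per array (points) and group mean (lines) of the 6 phosphatase genes with an unadjusted p under 0.05 against IgG1 and IgG2, with IgG1 and IgG2 in grey, the 3 arrays named IgG3 in yellow and TRF2-S in red, and open points for arrays where the gene was not detected. *Ppp2r5b*, *Ppp1r18* and *Ppp3cb* are highest on TRF2-S and undetected on the arrays named IgG3, while *Ppp1r16a*, *Ppp4r1* and *Ppp1ca* are lower on TRF2-S than on IgG1 and IgG2.

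Among the 10 catalytic subunits, 5 lay above 0 against IgG1 and IgG2, with a median of 0.022. Calcineurin A beta, *Ppp3cb*, was the highest. Its signal was 227 and 247 on IgG1 and IgG2, 252 and 356 in the TRF2-S RIP and 110, 105 and 111 on the arrays named IgG3, where it was not detected. The fold against IgG1 and IgG2 was 1.29 (log2 0.37, SE 0.11, limma adjusted p = 0.262), with both TRF2-S arrays above all 5 IgG arrays. The other calcineurin catalytic subunit, *Ppp3ca*, had scaled log2 signals of 10.78 and 10.69 on IgG1 and IgG2 and 11.01 and 10.74 on the TRF2-S arrays, which overlapped, and a log2 difference of 0.14 (SE 0.13). The regulatory B subunit that completes the enzyme, *Ppp3r1*, had 0.18 (SE 0.12). All 3 calcineurin genes tested were thus above 0 against IgG1 and IgG2, as were 51.4% of all probes, with limma adjusted p-values of 0.262 or more. They were above 0 under each other normalization tried as well, where the adjusted p of *Ppp3cb* was 0.094 with quantile normalization of the 7 arrays, in a range of 0.064 to 1 over all alternatives. Without the first TRF2-S array *Ppp3ca* was at 0.00061. Against all 5 IgG arrays 2 of the 3 were above 0, with *Ppp3ca* at -0.024, beside 41.3% of all probes. In that comparison 1 of the 3 was above 0 under each other normalization tried.

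The PP1 catalytic subunits did not go the same way. *Ppp1cb* had scaled log2 signals of 10.99 and 10.58 on IgG1 and IgG2 and 11.18 and 11.06 on the TRF2-S arrays, a difference of 0.33 (SE 0.15, limma adjusted p = 0.451). For *Ppp1ca* the same signals were 11.12 and 11.12 on IgG1 and IgG2 and 10.90 and 10.83 on the TRF2-S arrays, a difference of -0.26 (SE 0.10, limma adjusted p = 0.379). On this scale the groups did not overlap for either gene. Before scaling they did, with *Ppp1cb* at 937 and 1022 on IgG1 and IgG2 and 895 and 1588 on the TRF2-S arrays. *Ppp1ca* had 1009 and 1431 on IgG1 and IgG2 and 776 and 1365 on the TRF2-S arrays. *Ppp1cc* had a difference of -0.012, with a 95% interval of -0.27 to 0.24. The PP2A catalytic subunits *Ppp2ca* and *Ppp2cb* had 0.055 (SE 0.14) and -0.24 (SE 0.16), with overlapping groups. *Ppp4c*, *Ppp5c* and *Ppp6c* had 0.10, -0.025 and -0.13 with SEs of 0.12, and their groups overlapped as well.

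**Figure D3:**
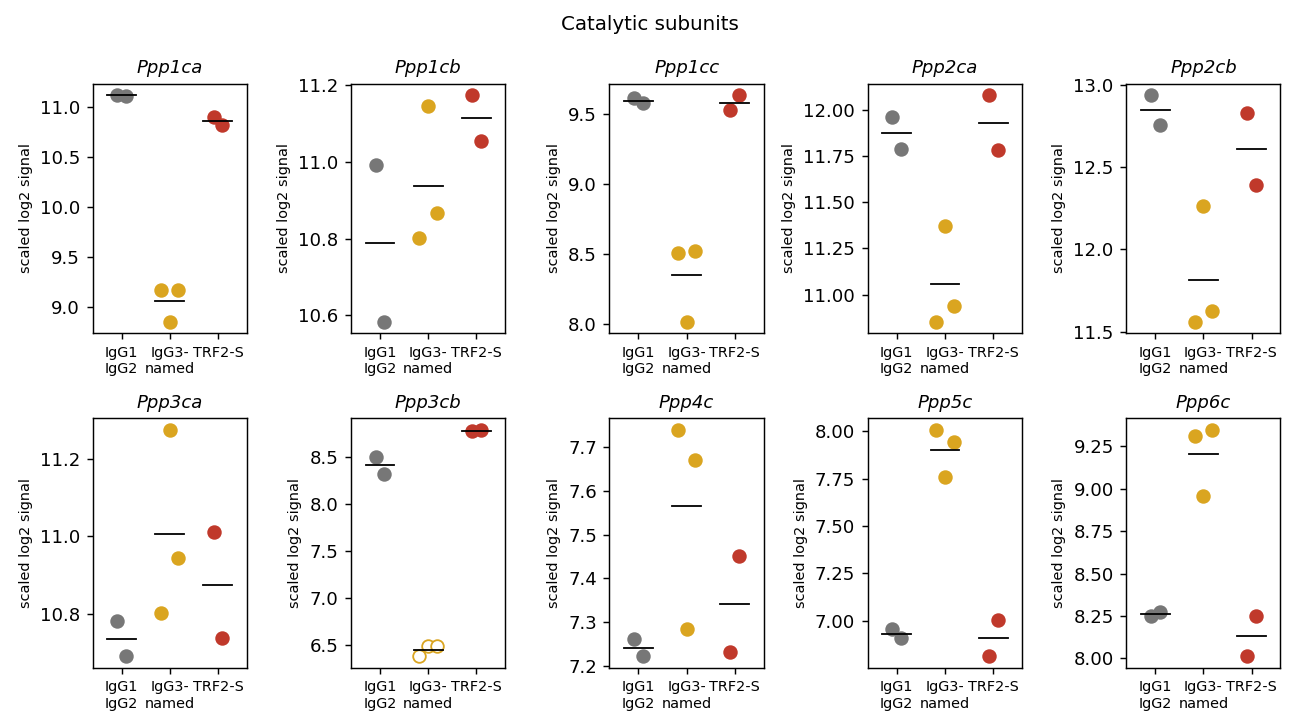
Scaled log2 signal per array (points) and group mean (lines) of the 10 catalytic subunits, with IgG1 and IgG2 in grey, the 3 arrays named IgG3 in yellow and TRF2-S in red, and open points for arrays where the gene was not detected. On this scale the TRF2-S points lie between -0.45 and 0.39 from the mean of IgG1 and IgG2, whereas the arrays named IgG3 lie below all others for *Ppp1ca*, *Ppp1cc*, *Ppp2ca*, *Ppp2cb* and *Ppp3cb* and above them for *Ppp5c* and *Ppp6c*.

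The PP2A scaffold *Ppp2r1a*, the platform on which the catalytic and B-type subunits meet, was detected on only 2 arrays, both named IgG3. Its signal was 74.3 to 77.4 on IgG1, IgG2 and the TRF2-S arrays, where it was not above background, so no fold is given. The second scaffold gene, *Ppp2r1b*, was detected on 0 arrays.

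The B-type subunits of PP2A differed among themselves. Of the B family, which includes the brain-enriched *Ppp2r2b*, the log2 differences against IgG1 and IgG2 were 0.14 for *Ppp2r2a* (SE 0.12), 0.14 for *Ppp2r2b* (SE 0.11) and -0.22 for *Ppp2r2d* (SE 0.11). The scaled log2 signals of *Ppp2r2d* were 9.87 and 9.99 on IgG1 and IgG2, 9.96, 10.03 and 9.93 on the arrays named IgG3 and 9.66 and 9.76 on the TRF2-S arrays. On this scale it was thus lower on both TRF2-S arrays than on each of the 5 IgG arrays, with an adjusted p of 0.492 in limma against IgG1 and IgG2. Before scaling its signals overlapped, with 496 and 704 on IgG1 and IgG2 and 403 and 675 on the TRF2-S arrays. The other B′ subunit tested, *Ppp2r5e*, had -0.10 (SE 0.11), in contrast to the 0.62 of *Ppp2r5b*. *Ppp2r3c*, a B″ subunit, had -0.12 (SE 0.16). Over the 8 PP2A genes other than the undetected scaffold, 4 were above 0 and the median was -0.025.

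The PP1 regulatory subunits made up 16 of the 39 genes, with 8 above 0 and 8 below. The 3 that bind the cytoskeleton or the cell cortex gave both ends of the PP1 range, *Ppp1r18* and *Ppp1r16a*, and between them *Ppp1r9b* (spinophilin), which holds PP1 in dendritic spines. *Ppp1r9b* had signals of 87.6 and 104 on IgG1 and IgG2 and 99.6 and 117 on the TRF2-S arrays. On the common scale its TRF2-S arrays lay just above IgG1 and IgG2, by 0.17 (SE 0.11, limma adjusted p = 0.603).

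Of the 5 PP1 inhibitors, 1 lay above 0 against IgG1 and IgG2 (2 under each other normalization tried, where *Ppp1r11* was above 0 as well), and the median was -0.12. That gene was *Ppp1r1b* (DARPP-32), the inhibitor through which dopamine and cyclic AMP act on PP1, with 0.054 (SE 0.11). A second, dimmer *Ppp1r1b* probe gave 0.057. Inhibitor-1, *Ppp1r1a*, had -0.12 (SE 0.11) and *Ppp1r14c* (KEPI), an inhibitor that protein kinase C activates, had -0.26 (SE 0.13, limma adjusted p = 0.495). Both TRF2-S arrays were below IgG1 and IgG2 for these last genes on the common scale, though not before scaling. *Ppp1r14b*, of the same inhibitor family as *Ppp1r14c*, had -0.23 (SE 0.24). It had the widest gap between the 2 TRF2-S arrays of any phosphatase gene, 0.77 on the log2 scale, where the median gap over the 39 genes was 0.12 between the TRF2-S arrays and 0.10 between IgG1 and IgG2. *Ppp1r11* (inhibitor-3) had -0.014 (SE 0.17).

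The nuclear PP1 partners were all within 0.13 of 0 against IgG1 and IgG2. *Ppp1r7* (SDS22) had 0.13, *Ppp1r10* (PNUTS) -0.053 and *Ppp1r8* (NIPP1) -0.065, with overlapping groups. *Ppp1r15a* (GADD34), which directs PP1 to the translation factor eIF2α, had 0.0054 (SE 0.13). It was not detected on IgG1 or the first TRF2-S array. *Ppp1r21*, in humans a part of a complex that ties mRNAs to early endosomes, had 0.054 (SE 0.15). *Ppp1r27* and *Ppp1r36* had -0.0033 and 0.059, and the glycogen-targeting *Ppp1r3b* was not above background on the TRF2-S arrays, IgG1 or IgG2. *Ppp1r36* was not detected on IgG2 or the first TRF2-S array. The values of *Ppp1r15a* and *Ppp1r36* are thus limited by background.

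The partners of PP4 and PP6 went in both directions. *Ppp4r1*, a PP4 regulatory subunit, had scaled log2 signals of 10.67 and 10.77 on IgG1 and IgG2 and 10.29 and 10.41 on the TRF2-S arrays. Its difference was -0.37 (SE 0.11, limma adjusted p = 0.257), and on this scale the TRF2-S values were below all 5 IgG values. Before scaling they overlapped IgG1 and IgG2. *Ppp4r2* and *Ppp4r3a*, which join *Ppp4c* in another PP4 complex, had -0.047 (SE 0.12) and 0.16 (SE 0.15). The SAPS-domain subunits of PP6 split, with *Ppp6r1* at 0.25 (SE 0.11, limma adjusted p = 0.414) and *Ppp6r2* at -0.22 (SE 0.10, adjusted p = 0.447). On the common scale both TRF2-S arrays stood above IgG1 and IgG2 for *Ppp6r1*, at 0.18 and 0.32 from their mean. For *Ppp6r2* both stood below, at -0.23 and -0.21. The unscaled signals overlapped for both genes.

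**Figure D4:**
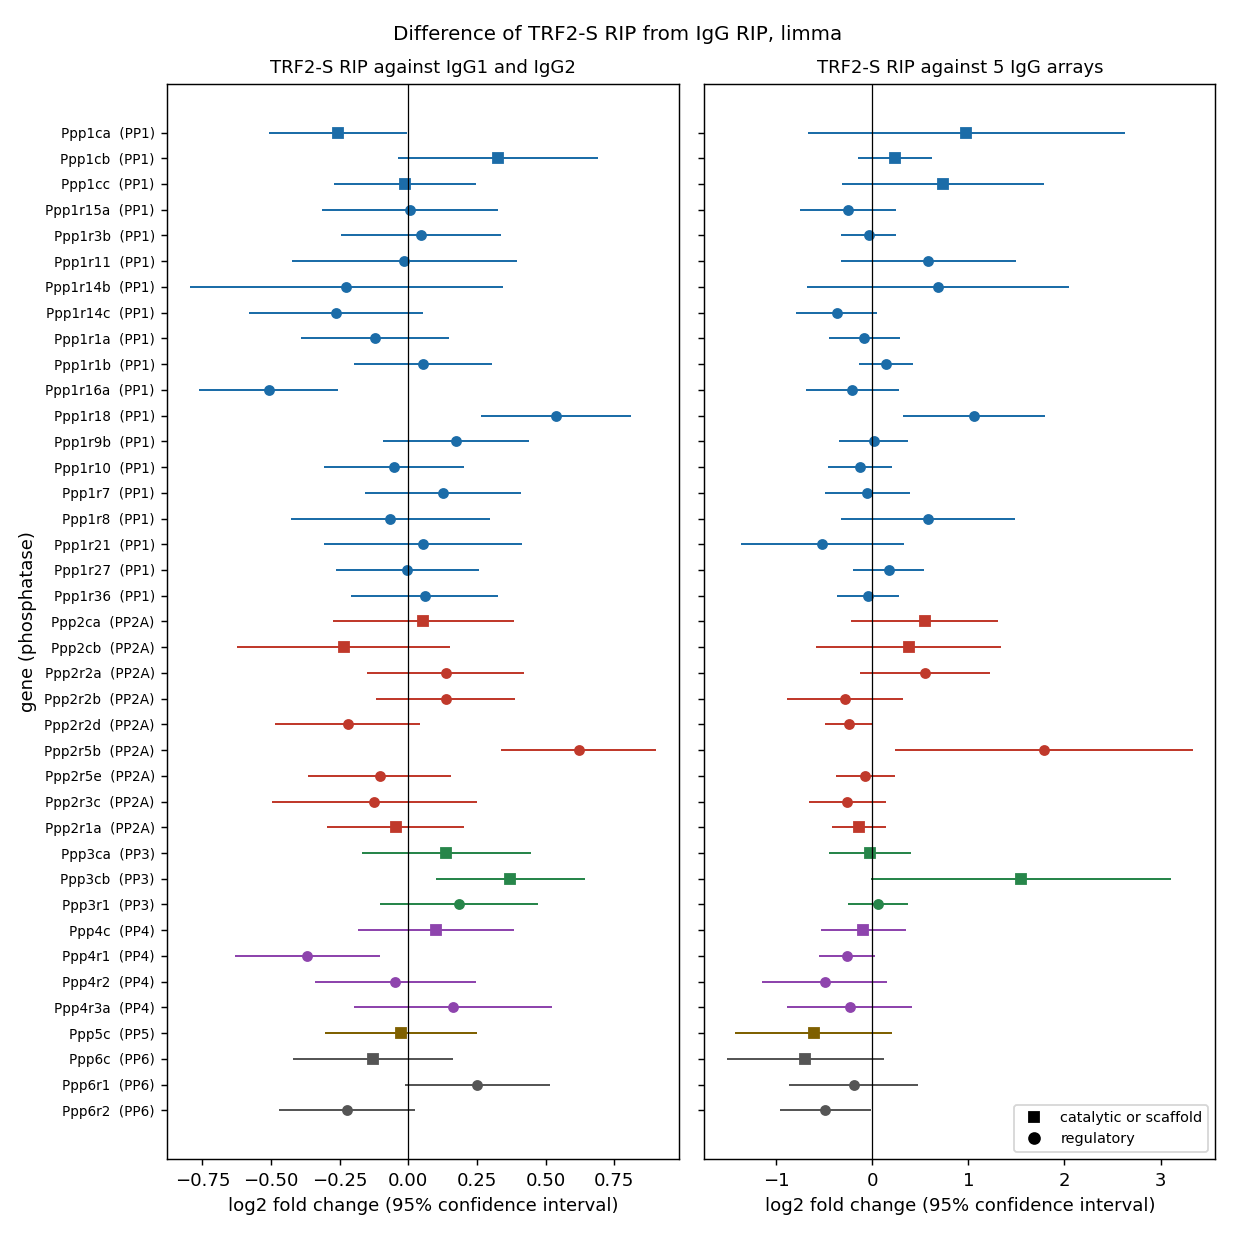
Log2 fold change of the TRF2-S RIP (points, with 95% confidence intervals from limma as lines) for the 39 phosphatase genes against IgG1 and IgG2 on the left and against all 5 IgG arrays on the right, coloured by phosphatase, with squares for catalytic and scaffold subunits and circles for regulatory ones. The axes differ in width: the left values run from -0.51 to 0.62 and the right values from -0.70 to 1.79, and no gene passes the adjusted threshold in either.

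Against all 5 IgG arrays the values spread more widely. The range was -0.70 for *Ppp6c* to 1.79 for *Ppp2r5b*, 16 of 39 genes lay above 0 (41.0%), and the median was -0.050, beside 41.3% and -0.070 over all probes. Again 0 members passed an adjusted p of 0.05 in limma, where 0.0327% of all probes were called higher and 0% lower, and the smallest adjusted p was 0.406. At an unadjusted p under 0.05, 2 members were higher (*Ppp2r5b* and *Ppp1r18*, 5.13%) and 2 lower (*Ppp6r2* and *Ppp2r2d*, 5.13%), where 6.06% of all probes were in each direction. Both TRF2-S arrays lay above all 5 IgG arrays for 3 members (7.69%, against 10.3% of all probes) and below for 4 (10.3%, against 11.6%), or for 3 of 37 (8.11%) without the 2 genes that the TRF2-S arrays, IgG1 and IgG2 did not detect (*Ppp2r1a* and *Ppp1r3b*). The median SE was 0.20, compared with 0.12 against IgG1 and IgG2. The ANOVA gave 3 members at an unadjusted p under 0.05 (7.69%, against 9.27% of all probes) and 0 after adjustment.

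The 3 genes above every IgG array were *Ppp2r5b*, *Ppp3cb* and *Ppp1r18*, with log2 fold changes of 1.79 (SE 0.66), 1.55 (SE 0.67) and 1.06 (SE 0.31) and a limma adjusted p of 0.406 each. Each was measured above background on only 2 of the 5 IgG arrays. When the arrays named IgG3 were averaged and counted as 1, the values were 1.27, 1.02 and 0.83, and with neqc they were 3.10, 2.82 and 2.28. The genes that were detected on the TRF2-S arrays and lay below every IgG array on the common scale were *Ppp6r2*, *Ppp4r1* and *Ppp2r2d*. They had -0.49 (SE 0.20), -0.26 (SE 0.12) and -0.25 (SE 0.10). The fourth was the scaffold *Ppp2r1a*, which met the detection limit only through arrays named IgG3. It was not above background on IgG1, IgG2 or the TRF2-S arrays, so its place below them is no measure.

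The 3 arrays named IgG3 lay wholly below the other 4 arrays for 13 of the 39 genes (33.3%, against 24.2% of all probes) and wholly above for 10 (25.6%, against 33.8%). Below on this scale were 5 of the 10 catalytic subunits. The place of these arrays depended on the scaling: with median centring of the arrays 5 of the 39 genes lay wholly below and 16 above (11.7% and 39.6% of all probes), and of the catalytic subunits only *Ppp3cb* was below. With quantile normalization 12 genes lay wholly below and 14 above (27.5% and 34.7% of all probes). The catalytic subunits below were then *Ppp1ca*, *Ppp1cc*, *Ppp2ca* and *Ppp3cb*. The unscaled signal on the arrays named IgG3 was 0.792 times that on IgG1 and IgG2 for *Ppp1ca*, 2.49 times for *Ppp2ca* and 2.58 times for *Ppp2cb*, beside a median of 2.37 times over the 39 genes. On the common scale *Ppp1ca* had 9.17, 8.85 and 9.17 on the arrays named IgG3, in contrast to 11.12 on both IgG1 and IgG2, so that its difference was -0.26 against IgG1 and IgG2 and 0.98 (SE 0.70) against all 5, or 0.53 against all 5 with median centring, relative to the shift of all probes. Of the 10 catalytic subunits 6 were above 0 against all 5, and 3 with median centring. *Ppp1cc* had -0.012 and 0.74 in the same order, *Ppp2cb* -0.24 and 0.38 (-0.069 with quantile normalization), and *Ppp2ca* 0.055 and 0.55 (-0.21 with median centring, relative to the shift of all probes).

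On the other side, the 10 genes for which the arrays named IgG3 were wholly above came from several phosphatases. They were 2 each of PP1, PP2A and PP4, 1 of PP5 and 3 of PP6. *Ppp5c* had scaled log2 signals of 6.95 and 6.91 on IgG1 and IgG2, 6.81 and 7.00 in the TRF2-S RIP and 8.01, 7.76 and 7.94 on the arrays named IgG3. *Ppp6c* had 8.25 and 8.27, 8.01 and 8.25, and 9.31, 8.96 and 9.35. For both genes the TRF2-S arrays were close to IgG1 and IgG2 and the arrays named IgG3 about 1 log2 unit above, which gave -0.61 (SE 0.35) and -0.70 (SE 0.35) against all 5. The unscaled signal of *Ppp5c* was dim, 94.3 and 101 on IgG1 and IgG2 and 89.4 and 109 on the TRF2-S arrays. The lowest detected signal on these arrays was 81.5 to 86.5, so its closeness there is limited by background. The arrays named IgG3 were highest for 3 of 3 PP6 genes, where they were for 33.8% of all probes. Against all 5 IgG arrays 0 of 3 PP6 and 0 of 4 PP4 genes lay above 0, beside 41.3% of all probes. There were exceptions under the alternatives. *Ppp4c* was at 0.024 with quantile normalization, 0.045 with neqc and 0.017 without the first TRF2-S array. *Ppp6r1* was at 0.0036 with the arrays named IgG3 averaged.

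*Ppp2r5b*, *Ppp3cb*, *Ppp1r18* and *Ppp1r8* were detected on IgG1, IgG2 and both TRF2-S arrays and on none of the arrays named IgG3 (10.3% of the members, where 4.89% of all tested probes had this pattern). None of the 39 had the reverse pattern, which 2.18% of all probes had. Without scaling, the signal of *Ppp2r5b* and of *Ppp3cb* on the arrays named IgG3 was 0.459 times that on IgG1 and IgG2. For *Ppp1r18* and *Ppp1r8* it was 0.880 and 0.783 times, beside a median of 2.09 times over all tested probes. The lowest detected signal was also higher there, 117.3 to 130.1, compared with 81.5 to 86.5 on IgG1, IgG2 and the TRF2-S arrays. All 7 arrays detected 30 of the 39 genes.

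The 17 genes of the family that did not meet the detection limit were 11 of 30 for PP1, 4 of 13 for PP2A, 1 of 4 for calcineurin and 1 of 5 for PP4. Of these 15 were detected on 0 arrays and 2 (*Ppp1r14a* and *Ppp2r2c*) on 1, with signals of 62.4 to 138.7. They include the myosin phosphatase targeting subunits *Ppp1r12a* and *Ppp1r12b*, inhibitor-2 (*Ppp1r2*), the B′ subunits *Ppp2r5a* and *Ppp2r5c* and the testis calcineurin B subunit *Ppp3r2*. A probe below background gives no measure of its mRNA in either RIP.

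Partners of these enzymes have other names. Of 54 listed activators, inhibitors, substrates and other serine/threonine phosphatases, 39 were on the array and 24 were tested. Against IgG1 and IgG2, 13 lay above 0, the median was 0.024 and 0 passed adjustment in limma. An unadjusted p under 0.05 was reached by 2 higher and 2 lower genes (8.33% each, against 6.51% and 6.02% of all probes). The higher were *Phactr3*, which binds PP1 and actin (0.34, SE 0.12), and *Strn4*, a striatin that acts as a B-type subunit of PP2A (0.31, SE 0.13). The lower were the calcineurin inhibitor *Cabin1* (-0.33, SE 0.12) and *Calm3*, which encodes calmodulin, the calcium sensor of calcineurin (-0.52, SE 0.20). Another calmodulin gene, *Calm2*, went the other way with 0.44 (SE 0.38). Against all 5 IgG arrays *Calm3* had -0.0033 (SE 0.44) and *Calm2* 1.22 (SE 0.64). Against all 5 IgG arrays 10 were above 0, the median was -0.019, and 0 passed adjustment in limma. An unadjusted p under 0.05 was reached by 3 higher and 3 lower genes (12.5% each, against 6.06% of all probes each way). The PP2A activator *Ptpa* and *Tiprl*, which binds the catalytic subunits of the PP2A type, had 0.37 (SE 0.14) and 0.84 (SE 0.32), and *Strn4* had 0.45 (SE 0.14). *Cabin1* (-0.64, SE 0.21), the calcineurin regulator *Rcan2* (-0.47, SE 0.18) and *Mob4* of the striatin complex (-0.34, SE 0.14) were the lower genes. *Phactr3* was below 0 in this comparison (-0.41, SE 0.43).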

How the data were processed

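RNA from 2 TRF2-S RIP and 5 IgG RIP samples of rat cortical neurons was hybridized to single-colour Illumina bead arrays. The authors deposited a linear signal intensity per probe and array, not normalized (made with GenomeStudio 2011.1, per the submitters' processing notes). Beside it stands a deposited detection p-value, which sets each intensity against the negative control beads of its array. A score deposited for the same probes is a Z-score of log intensities within an array and differs from the one computed here by at most 5.00001e-10. Its direction, centring and scale are thereby known and the base of its log is not. The median score per array was -0.474 to -0.378.

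Here log2 intensities were Z-scored per array and returned to log2 units with mean 6.98 and SD 1.21 for all arrays. This SD exceeds the log2 SD of IgG1, IgG2 and the TRF2-S arrays (0.92 to 1.16), so differences among these are stretched. Probes detected (p under 0.02) on 2 or more arrays were tested with lmFit and eBayes of limma 3.58.1 in R 4.3.3, with p-values adjusted by Benjamini-Hochberg and a threshold of 0.05, with the 4 arrays of the first comparison fitted on their own. The scripts were tested on simulated data. The platform annotation gives 1 gene symbol for 13793 of 22523 probes, several for 0 and none for 8730. The 56 phosphatase genes all matched RefSeq by gene identifier. Precision is limited by the number of arrays.

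The genes named are the catalytic and scaffold subunits, *Ppp1r18* and, of the rest, up to 8 higher and 6 lower by size among those whose TRF2-S arrays lie beyond IgG1 and IgG2 (5 higher qualified), with others as ends of a range or members of a family. The members, lists and tests were chosen with earlier results of these data known. The alternatives were other normalizations, filters, arrays left out, the ANOVA of the methods and blocks.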

Additional observations from a re-analysis of the deposited data

Results flagged for a closer look

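*Ppp1r1a* (inhibitor-1) was the only one of 39 phosphatase genes with an IgG array far from the others. Its scaled log2 signal on IgG3_0 was 6.89, where the other 4 IgG arrays had 7.24 to 7.35, and this gap was 0.766 of the range of the group, over Dixon's limit of 0.71 for 5 samples. Chance gives such a gap in about 1 of 20 groups, so 1 gene among the 39 examined does not stand out. The limit also takes the 5 IgG arrays as alike, which they were not.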

How the results depend on the processing

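Against IgG1 and IgG2 no phosphatase gene was called on the Z-score scale, and the count changed with 3 settings: quantile normalization of the 7 arrays, quantile normalization of the 4 arrays alone (chosen after seeing the data) and the replicate block each called 2 genes higher (*Ppp2r5b*, *Ppp1r18*) and 1 lower (*Ppp1r16a*). The numbers of the TRF2-S and IgG arrays are not said to mark a shared batch, and same-numbered arrays deviated together with a correlation of 0.28 over 2 pairs, so the block has no basis beyond the number. The adjusted p of *Ppp2r5b*, *Ppp1r18* and *Ppp1r16a* was 0.0054, 0.018 and 0.026 with the 4 arrays alone and 0.0051, 0.014 and 0.015 with the block. The block over 7 arrays is the same fit, since IgG arrays 3 to 5 have no partner. Probes called higher and lower, 13 and 1 on the Z-score scale, were 221 and 136 with quantile normalization, 318 and 236 with the 4 arrays alone, 338 and 310 with the block, 32 and 4 with no filter, 34 and 5 with all 7 arrays in 3 groups, 8 and 0 with neqc and 0 and 0 with median centring, no normalization or the ANOVA. Leaving out 1 array gave 0 to 136 higher and 0 to 162 lower, with the most without IgG1, and a median over the phosphatase genes of -0.032 to 0.049. The cause of these shifts was not tested.

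Against all 5 IgG arrays 3 probes were called higher, compared with 5 with quantile normalization, 10 with neqc, 1 with the arrays named IgG3 as a random block, 0 with median centring, no normalization, detection on every array or the arrays named IgG3 averaged, and 0 to 1 with 1 array left out. Median centring and no normalization shifted the median of all probes by -0.27 and -0.55. Relative to that shift both gave a phosphatase median of -0.21.

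Over the named genes, 310 values under the alternatives kept their direction and side of the threshold against IgG1 and IgG2 and 342 against all 5 IgG arrays. In the same order 9 and 0 came to pass the threshold, and 11 and 29 changed direction, mostly for genes near 0. The deposited scores, the other filters and the ANOVA leave the log2 fold change as it was, so direction could not change under them. Against IgG1 and IgG2 this also holds for the replicate block and the 3 groups. These counts are therefore no measure of stability. Against IgG1 and IgG2, *Ppp1cc* was 0.0060 with quantile normalization, 0.0043 with none, 0.0032 with neqc and 0.0079 with the 4 arrays alone, and *Ppp5c* was 0.014 with none. With 1 array left out *Ppp1cc* ran from -0.066 to 0.042, *Ppp5c* from -0.12 to 0.070, *Ppp2ca* from -0.094 to 0.20 and *Ppp4c* from -0.0083 to 0.21. Against all 5 IgG arrays, quantile normalization and neqc gave *Ppp2cb* -0.069 and -0.065, *Ppp4c* 0.024 and 0.045 and *Ppp3r1* -0.030 and -0.039, and neqc gave *Ppp1r16a* 0.0043. Median centring and no normalization, less their shift, gave *Ppp2cb* -0.50, *Ppp3r1* -0.52, *Ppp1cb* -0.44, *Ppp2ca* -0.21 and *Ppp1r1a* 0.0027. Averaging the arrays named IgG3 gave *Ppp3ca* 0.048 and *Ppp6r1* 0.0036, and the random block gave *Ppp3ca* 0.032. With 1 array left out *Ppp4c* ran from -0.20 to 0.017, *Ppp3r1* from -0.0026 to 0.090, *Ppp1r1a* from -0.17 to 0.0033, *Ppp1r9b* from -0.043 to 0.066 and *Ppp3ca* from -0.16 to 0.11. The values near the lowest detected signal (81.5 to 130.1 per array), such as those of *Ppp1r18*, are limited by background.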
